A study of Mus musculus with 6 samples.

Results

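Insr, App, Bin1, Mef2a, Mtmr1, Pkm, Tnnt2, Ldb3 and Ocln are 9 of the 22071 genes named on the array, and all 9 encode transcripts whose splicing or translation has been reported to be controlled by CELF1 in muscle, heart or gut. Their members here were the exon probe sets that the platform's annotation assigns to 1 of these genes alone, with Pkm listed there under its older name Pkm2. This gave 221 of 316997 probe sets with a single gene symbol. The samples were primary cortical neuron cultures from C57BL/6 mouse embryos at embryonic day 15, infected on day 5 with a lentivirus that expressed a short hairpin RNA (shRNA) and harvested on day 11. The control_shRNA group received a control shRNA and the Cugbp1_shRNA group one that targets Celf1, formerly named Cugbp1, with 3 arrays in each. All cultures had been treated with AraC, which removes dividing cells, and were exposed to virus for 4 hours. The labels do not say whether the 3 arrays of a group came from separate cultures, so p-values measure the spread between these arrays, which may be technical. In the treatment text of replicates 2 and 3 of either group the hairpin is said to target Tdp-43, whereas their titles name Cugbp1 or control, and the titles were followed. The series' design text speaks of motor neurons, whereas its title and the sample labels speak of cortical neurons, and the labels were followed.

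CELF1 is an RNA-binding protein that recognises GU-rich sequences. In the nucleus it promotes the skipping or the inclusion of alternative exons next to its binding sites, and in the cytoplasm it binds 3' untranslated regions and affects the decay and translation of mRNA. It is best known from myotonic dystrophy, in which its activity rises in muscle and heart, muscleblind-like proteins are sequestered, and several of the exons of these 9 genes revert to fetal patterns. In neurons it is one of several CELF proteins, some of which are mainly neuronal.

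The data are log2 RMA values with 1 value for each exon probe set on each array. A gene value combines the probe sets of a gene on each array by Tukey median polish, and the usage of a probe set is its log2 value minus the gene value on the same array, so that a usage above that of the controls means a probe set that is higher relative to the rest of its gene. Probe sets with a mean over the 6 arrays below 5.73, the median of all probe sets, were left out of the tests by a rule blind to group. Of the 221 member probe sets 197 (89.1%) passed, against 78.7% of all probe sets with 1 symbol. All probe sets of Insr (29) and Pkm (21) passed, as did 29 of 30 of Bin1, 27 of 29 of App, 23 of 25 of Mtmr1, 21 of 23 of Mef2a, 22 of 25 of Ldb3 and 12 of 14 of Ocln. Only 13 of 25 passed for Tnnt2, the cardiac troponin T gene. Probe set positions were not used, and no probe set is placed on a named exon.

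The shRNA target was low on every knockdown array. The Celf1 gene value was 10.85, 10.79 and 10.75 on control replicates 1, 2 and 3 and 9.59, 9.40 and 9.33 on the Cugbp1 shRNA arrays with the same numbers. Pan-neuronal markers were well measured, with 98.4% of their probe sets above the threshold. Of these markers 0 of 7 tested passed in limma (1 with an unadjusted p under 0.05, beside 18.8% of all genes). That 1 was Dcx, a microtubule protein of young neurons, at 12.68, 12.57 and 12.37 in controls and 12.24, 12.09 and 11.95 after knockdown. Limma with the replicate block called Dcx lower (-0.45, adjusted p = 0.00504), beside 23.2% of all genes called in either direction. Of 12 muscle markers 9 could be tested and 66.1% of their probe sets lay above the threshold, and limma called 0 of the 9, none of which had p under 0.05 even before adjustment. Array medians lay between 5.74 and 5.78.

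At the level of whole genes, Ocln fell and the other 8 genes did not pass the test. Ocln encodes occludin, a membrane protein of tight junctions whose translation CELF1 has been reported to repress in gut epithelium. Its gene value was 7.83, 8.06 and 7.80 on the control arrays and 7.04, 7.02 and 7.00 on the knockdown arrays. The groups did not overlap, and the knockdown arrays lay much closer together than the control arrays. The log2 difference of -0.88 (standard error 0.10) corresponds to 54.3% of control (95% confidence interval 46.2% to 63.9%; limma, adjusted p = 0.0176, and 0.00255 with the replicate number as a block). Over all 16524 genes tested, limma called 3.94% in either direction and 2.84% as lower, so 1 call among 9 genes is a count too small to set apart from that background. The Ocln call held without control replicate 1 (adjusted p = 0.0402) and was lost without any 1 of the other 5 arrays (adjusted p = 0.0615 to 0.141), with a difference of -0.90 to -0.76 throughout. On the arrays of replicates 2 and 3 alone Ocln was at -0.90 (limma, adjusted p = 0.0301).

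The intervals of the other 8 genes set limits on what could have been missed. App, the amyloid precursor protein gene, was at 101.6% of control (95% confidence interval 88.7% to 116%). Pkm, the muscle and brain pyruvate kinase of glycolysis, was at 101.9% (87.4% to 119%), and Mtmr1, a phosphoinositide phosphatase of the myotubularin family, was at 98.7% (82.0% to 119%). Mef2a, a transcription factor of muscle and neuron differentiation, was at 110.7% (96.4% to 127%). Its groups did not overlap, at 11.39 to 11.53 in controls and 11.57 to 11.64 in knockdown arrays, a pattern shown by 25.2% of all genes, and its adjusted p was 0.434 in limma (0.111 with the replicate block). Insr, the insulin receptor, was at 108.6% (91.9% to 128%, and a log2 difference of 0.12 that was 0.029 without control replicate 3) and Bin1, a membrane-bending protein of muscle T-tubules and neuronal endocytosis, at 107.5% (90.1% to 128%). The intervals were widest for the heart and muscle genes Tnnt2, at 104.1% (78.0% to 139%), and Ldb3, at 90.3% (72.1% to 113%), where Ldb3 encodes a PDZ and LIM domain protein of the muscle Z-disc. Limma adjusted p values of the 8 genes ran from 0.434 to 0.969, and from 0.111 to 0.847 with the replicate block, by which 23.2% of all genes were called. Before adjustment the blocked p was under 0.05 for 3 of the 9 genes, Ocln, Mef2a and Ldb3, beside 37.9% of all genes.

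**Figure D1:**
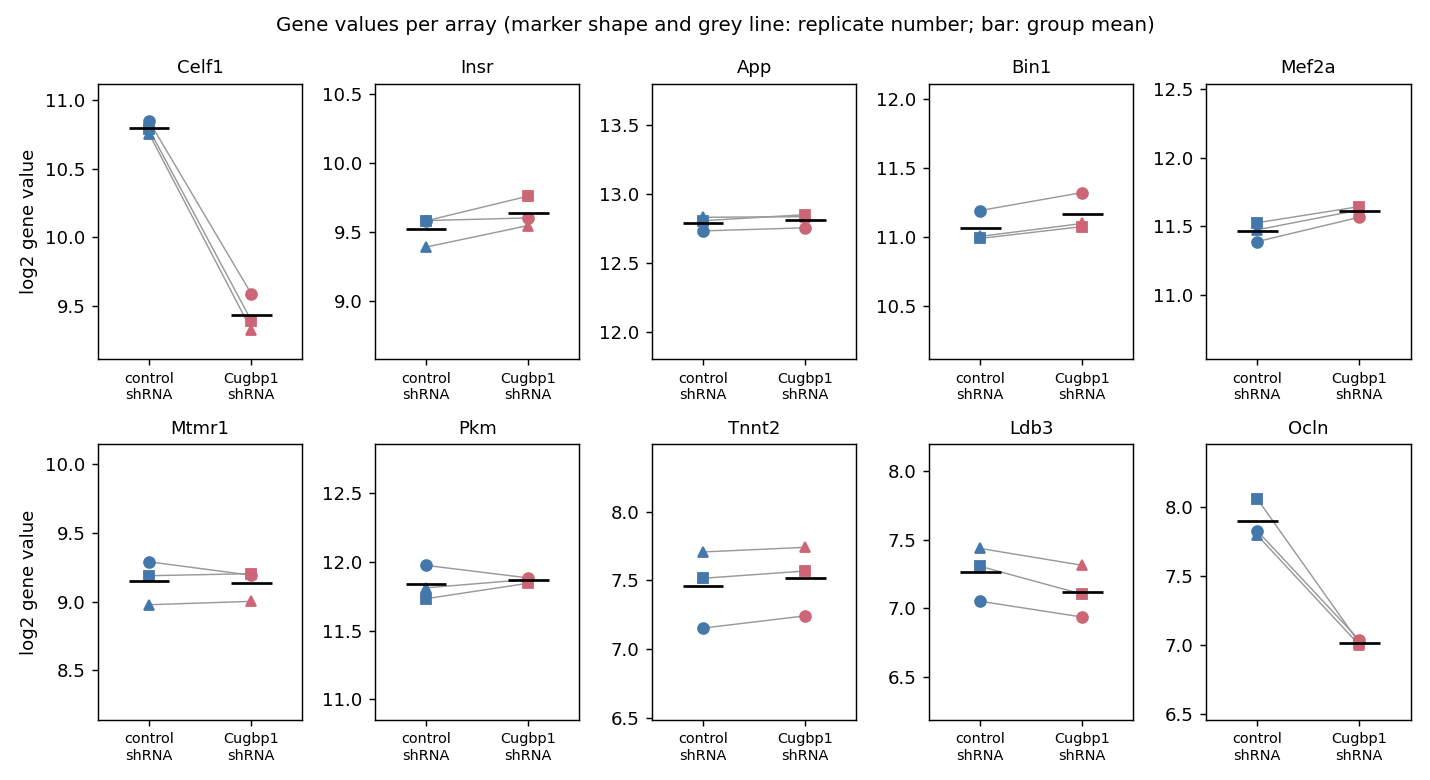
Log2 gene value (y axis, each panel spanning the same range of 2 log2 units around its own mean) on each array for Celf1 and the 9 genes, by shRNA. Marker shape and grey line give the replicate number and the black bar the group mean. Celf1 and Ocln separate clearly, with Ocln at 7.80 to 8.06 in controls and 7.00 to 7.04 in knockdown arrays, while most other panels overlap.

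Relative usage within the 9 genes was then compared, because splicing changes single exons rather than whole genes. None of the 197 member probe sets passed over the 244606 tested (limma, smallest adjusted p = 1), and none did over the whole array (0 called, 0%). Before adjustment p was under 0.05 for 14 of 197 (7.11%), beside 4.28% of all probe sets. Of these 6 were higher and 8 lower, beside 2.01% and 2.26% of all. The groups did not overlap for 23 (11.7%), beside 9.01% of all. A usage difference larger than 0.5 in either direction was seen for 13 (6.60%), beside 3.19% of all, and these lay in Ldb3 (5), App (3), Tnnt2 (2), Ocln (2) and Insr (1). The median absolute usage difference was 0.082 for the members and 0.10 for all probe sets. These shares were not tested against each other.

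Same-numbered arrays of the groups deviated together, so usage was also fitted with the replicate number as a block. By that model 23 of 197 member probe sets (11.7%) had an unadjusted p under 0.05, beside 11.3% of all, and the smallest adjusted p of a member was 0.278, with 0 called over the whole array. A further test, limma's diffSplice, pools the spread over the probe sets of a gene in place of using each probe set's own. It called 0 members and 0.0822% of all probe sets without the block (7505, or 3.07%, with an unadjusted p under 0.05), and 9 members (4.57%) and 2.37% of all with it. The 9 were 3 of App, 2 of Mef2a, 2 of Ldb3, 1 of Insr and 1 of Ocln, 6 of them higher and 3 lower. This last setting was added after seeing the data. On simulated data diffSplice without the block called more unchanged probe sets than its threshold allows. The blocked setting was not simulated and the simulation held no replicate effect, so it gives no error rate for the 9 calls.

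**Figure D2:**
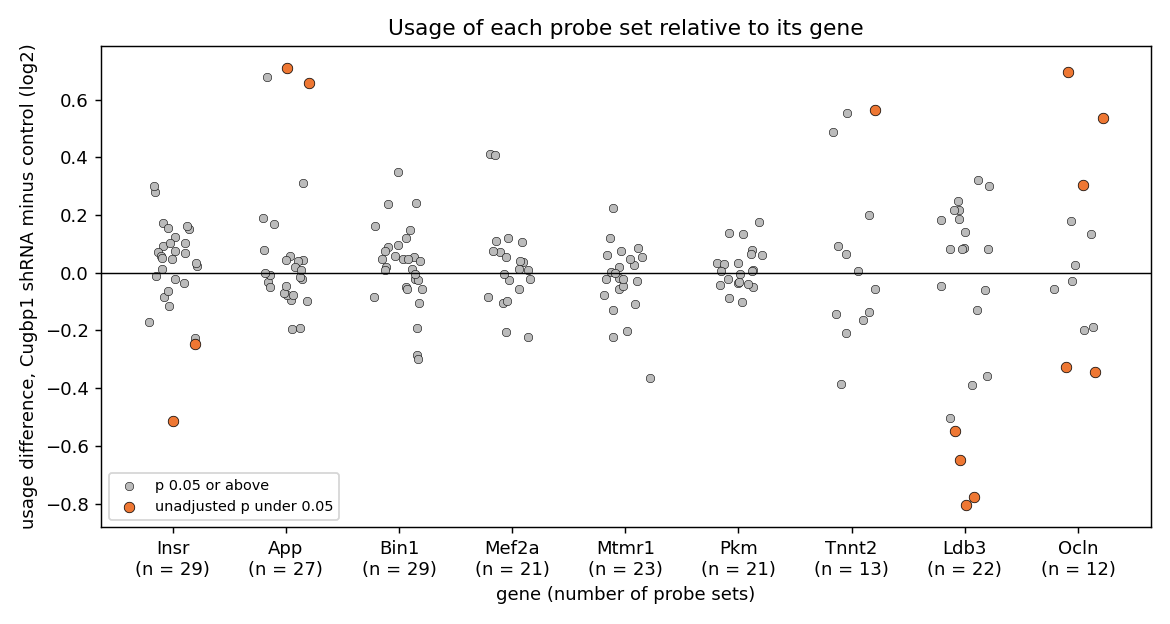
Usage difference (y axis, log2, Cugbp1 shRNA minus control) of each of the 197 probe sets, by gene. Orange points have an unadjusted limma p under 0.05, and none passed after adjustment. The App points near 0.7, the Ldb3 points between -0.81 and -0.55 and the widely spread Ocln points stand out, while Pkm stays between -0.10 and 0.18.

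App carried the most even differences. Its mRNA includes alternative cassette exons, among them the one that encodes a Kunitz-type protease inhibitor domain, and neurons mostly leave these out. Probe set 4418953 had log2 values of 10.34, 10.74 and 10.83 on control replicates 1, 2 and 3 and of 11.07, 11.43 and 11.46 on the knockdown arrays. Probe set 4327540 had 9.59, 10.11 and 9.81 in controls and 10.21, 10.84 and 10.66 after knockdown. Probe set 4349797 had 8.36, 9.49 and 8.85 in controls and 9.16, 9.89 and 9.75 after knockdown. In the first and the second of these every knockdown array lay above every control array, and in the third the groups overlapped although each knockdown array lay above the control of the same number. The second and the third were singled out after their values were seen.

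Since the App gene value hardly moved, usage repeated this picture. The usage of 4418953 was -2.15 ± 0.21 (SD, n = 3) in controls and -1.50 ± 0.16 (SD, n = 3) after knockdown, a difference of 0.66 (standard error 0.15, 95% confidence interval 0.30 to 1.01), or 1.58-fold. For 4327540 it was 0.71 (standard error 0.18, interval 0.27 to 1.15), and for 4349797 it was 0.68 (standard error 0.30, interval -0.03 to 1.39). By replicate number the 3 differences were 0.71, 0.65 and 0.62 for the first, 0.60, 0.69 and 0.85 for the second and 0.77, 0.36 and 0.90 for the third. Each was positive, but the 3 probe sets were picked by their gains on these same arrays. Their signs are therefore not separate replicates. The limma p values were 0.00355, 0.00672 and 0.0590 before adjustment and 0.000477, 0.000646 and 0.00406 with the replicate block, and after adjustment over all probe sets they were 1 in each case, and 0.278, 0.278 and 0.298 with the block. DiffSplice with the block called all 3 (adjusted p = 0.000199, 4.35e-05 and 0.000112), and without it none (0.646, 0.456 and 0.562). Over 20 alternative settings their usage differences stayed between 0.55 and 0.77, between 0.59 and 0.88 and between 0.45 and 0.97.

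The 3 App probe sets lay well above the filter threshold, with means 5.24, 4.47 and 3.52 log2 units above it. No other App probe set approached them, and the usage differences of all 27 ran from -0.20 to 0.71 with a median near 0. The lower end was probe set 4384752, whose usage was -0.79, -0.72 and -0.68 in controls and -0.90, -0.88 and -1.004 after knockdown. Its groups did not overlap, but the difference was -0.20 with an interval of -0.42 to 0.03. App thus combined an unmoved gene value with 3 probe sets, picked by their gains, that were relatively higher on all knockdown arrays than on their paired controls. None of the 3 passed in limma after adjustment, with or without the block.

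Ldb3, which is spliced differently in heart and skeletal muscle, had more probe sets with lower usage at an unadjusted p under 0.05 than any other of the 9 genes, 4 of 22, although its median usage difference was 0.081. Probe set 4539301 had log2 values of 7.71, 7.997 and 7.45 in controls and 6.76, 6.53 and 7.09 after knockdown. Probe set 5524999 had 6.90, 7.29 and 6.50 in controls and 5.60, 6.04 and 6.20 after knockdown. Probe set 4739604 had 7.86, 8.04 and 7.82 in controls and 7.34, 7.13 and 6.86 after knockdown. Every knockdown array lay below every control array in the levels of each of the 3, a pattern whose share over all probe set levels was not counted. The gene value differed by -0.15, and by -0.29 to -0.046 when single arrays were left out.

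In usage, 4539301 differed by -0.78 (standard error 0.22, 95% confidence interval -1.30 to -0.26), 5524999 by -0.81 (standard error 0.25), 4739604 by -0.65 (standard error 0.24) and 4532525 by -0.55 (standard error 0.20). Their limma p values before adjustment were 0.00987, 0.0156, 0.0301 and 0.0292, and the last 3 probe sets were singled out after their values were seen. In usage the groups of 4539301 and 5524999 did not overlap, whereas those of 4739604 and 4532525 did. Usage groups were apart for 2 of the 22 Ldb3 probe sets (9.09%), beside 9.01% of all. The differences were uneven over replicates. It was -0.83, -1.27 and -0.23 in replicates 1, 2 and 3 for 4539301 and -1.19, -1.05 and -0.18 for 5524999, so that replicate 3 contributed little to either, while for 4739604 replicate 3 had the largest difference, at -0.40, -0.71 and -0.83. DiffSplice with the block called 4539301 (adjusted p = 0.0424) and 5524999 (0.0311). Without control replicate 2 their differences were -0.60 and -0.57, and that of 4532525 was -0.34. Ldb3 was weakly measured, since 14 of its 22 probe sets had means less than 2 log2 units above the threshold, among them all 4 named here, at 1.52, 0.69, 1.77 and 0.62. Among the 22 probe sets that passed the filter higher usage did not exceed 0.32, and the smallest p in that direction belonged to 4777961, at 0.30 (standard error 0.16), which was 0.15 without Cugbp1 shRNA replicate 1.

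Tnnt2, in which CELF proteins favour inclusion of an embryonic exon in heart muscle, had the smallest share of its probe sets above the threshold of the 9 genes. The 12 of its probe sets that failed the filter had means of 3.08 to 5.54, and in none of them did the groups separate. Of the 13 that passed, 4682180 had log2 values of 8.03, 8.74 and 8.36 in controls and 8.78, 8.90 and 9.32 after knockdown. Its usage was 0.88, 1.23 and 0.65 in controls and 1.54, 1.33 and 1.58 after knockdown, which is a difference of 0.56 (standard error 0.17, 95% confidence interval 0.16 to 0.97, limma p value before adjustment 0.0135). The groups did not overlap, but the difference was 0.67, 0.10 and 0.93 by replicate and thus small in replicate 2. Probe set 5601572, singled out after its values were seen, was at 0.55 (standard error 0.24) with overlapping groups. In the other direction 4528898 was at -0.39 (standard error 0.24), and all 3 of its paired differences were negative, at -0.29, -0.52 and -0.35, although leaving out single arrays moved the difference to between -0.61 and -0.22. Neither diffSplice setting called a Tnnt2 probe set.

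**Figure D3:**
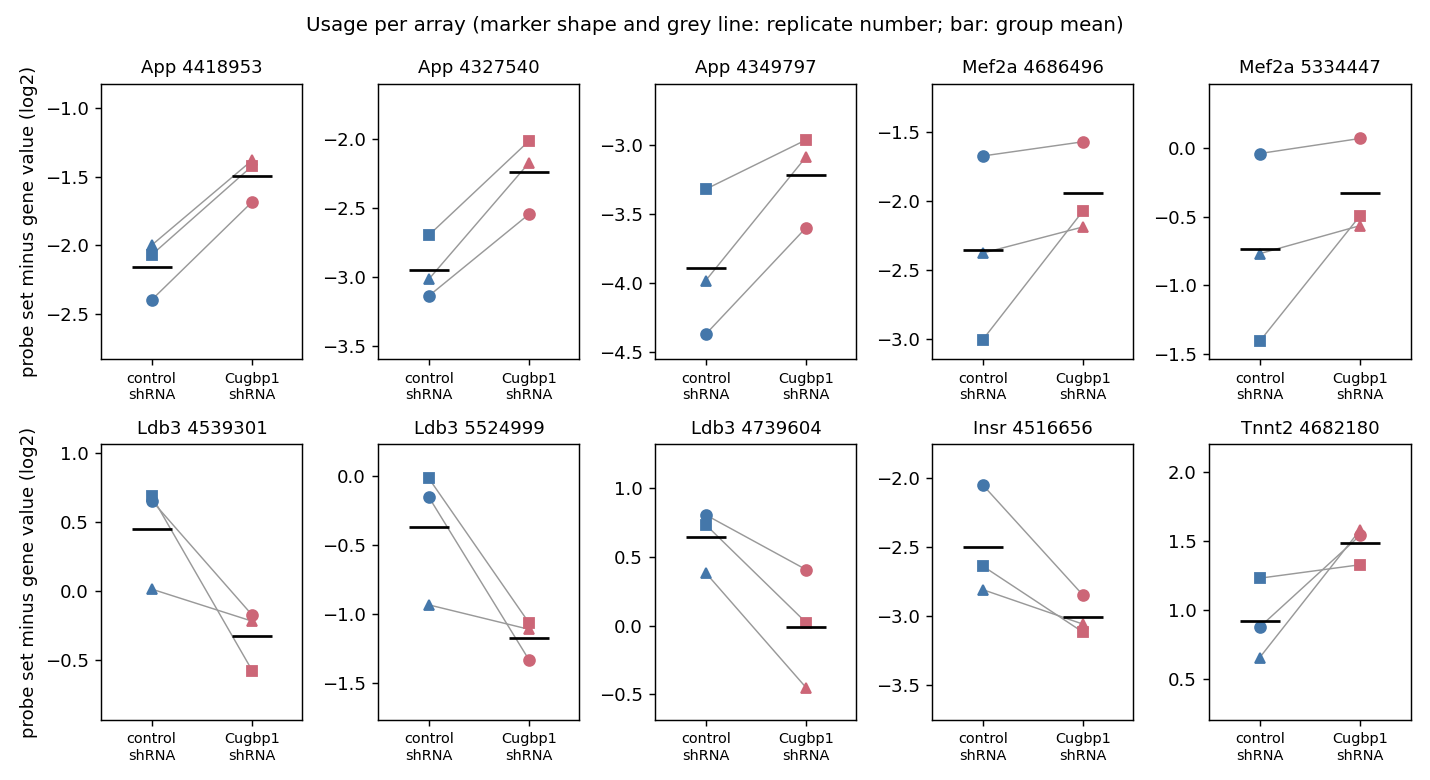
Usage (y axis, probe set minus gene value, log2, each panel spanning 2 log2 units) on each array for 10 probe sets of App, Mef2a, Ldb3, Insr and Tnnt2, by shRNA. Marker shape and grey line give the replicate number and the black bar the group mean. The App lines run upward nearly in parallel, the Mef2a lines run steeply upward in replicate 2 only, and the Ldb3 and Insr lines all run downward.

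Insr has an alternative exon at the end of the receptor's ligand-binding subunit, whose skipping gives the isoform that is common in brain. Of its 29 probe sets 25 had a higher mean level after knockdown, in step with the gene value. Against this, 4516656 was low relative to the gene. Its log2 values were 7.53, 6.94 and 6.58 in controls and 6.75, 6.64 and 6.48 after knockdown, so the levels themselves overlapped. Its usage was -2.05, -2.64 and -2.81 in controls and -2.85, -3.12 and -3.06 after knockdown, which did not overlap, and it differed by -0.51 (standard error 0.21, limma p value before adjustment 0.0467). Without control replicate 1, the highest of the 6 arrays, the difference was -0.29. DiffSplice with the block called it (adjusted p = 0.0117) and without the block did not (1). Its mean was 1.09 log2 units above the threshold, the smallest margin of any Insr probe set. The brighter probe set 5281849, singled out after its values were seen, was at -0.25 (standard error 0.10, limma p value before adjustment 0.0498), with usage of 0.87, 0.88 and 0.70 in controls and 0.64, 0.50 and 0.57 after knockdown. The highest-ranked gain was 5000672, at 0.28 (standard error 0.16) with overlapping groups, and 0.15 without control replicate 3.

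Mef2a, whose splicing and translation are both reported CELF1 targets, had 2 probe sets with nearly identical behaviour. The usage of 4686496 was -1.67, -3.01 and -2.38 in controls and -1.57, -2.07 and -2.19 after knockdown. That of 5334447, singled out after its values were seen, was -0.04, -1.40 and -0.77 in controls and 0.07, -0.49 and -0.56 after knockdown. Both differed by 0.41, with standard errors of 0.35 and 0.36. The paired differences were 0.10, 0.94 and 0.19 for the first and 0.11, 0.91 and 0.20 for the second, so most of the difference came from replicate 2, and it was 0.095 and 0.087 without control replicate 2 and 0.75 and 0.76 without control replicate 1. DiffSplice with the block called both (adjusted p = 0.0317 and 0.0329), and without it neither (1). Whether they cover the same stretch of the transcript was not examined. Lower usage reached -0.22 (standard error 0.19) in 4532321, or -0.037 without control replicate 3, and 19 of 21 Mef2a probe sets had a higher mean level after knockdown.

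Bin1, Mtmr1 and Pkm showed smaller differences, and no probe set of theirs that passed the filter had an unadjusted p under 0.05. In Bin1, whose muscle and brain isoforms differ by several alternative exons, the smallest p values belonged to 4387878, at -0.19 (standard error 0.11) with usage of 0.44, 0.45 and 0.60 against 0.27, 0.43 and 0.21, and to 5343131, at 0.35 (standard error 0.31). The latter difference was 0.21, 0.17 and 0.66 by replicate and 0.042 without control replicate 3, and the former difference was -0.11 without Cugbp1 shRNA replicate 3. In Mtmr1, which has muscle-specific exons affected in myotonic dystrophy, 5133859 was at -0.20 (standard error 0.16) and 4341234 at 0.12 (standard error 0.10). Without control replicate 1 the former was -0.045, and without control replicate 3 the latter was 0.056. In Pkm, where a pair of mutually exclusive exons distinguishes the adult and the proliferative isoform, 5201207 was at 0.14 (95% confidence interval -0.14 to 0.41) and 4711272 at -0.09 (-0.30 to 0.12). The former was 0.053 without control replicate 2. The whole range over the 21 Pkm probe sets was -0.10 to 0.18, the narrowest of the 9 genes, and all had means at least 2.32 log2 units above the threshold.

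A Bin1 probe set that failed the filter differed more. Probe set 4686188, singled out after its values were seen, had log2 values of 4.82, 4.90 and 4.44 in controls and 6.20, 5.80 and 5.27 after knockdown. The groups did not overlap, and the level differed by 1.04, but the mean of 5.24 lay 0.49 below the threshold, so the control values were among the dim part of the array. With no filter its usage differed by 0.92 (standard error 0.22, limma p value before adjustment 0.00536). Of the other 23 probe sets left out by the filter, 1 had levels with the groups apart, Ocln 4943816, at a mean of 3.08. In usage with no filter the groups were apart for 1 of the 23, Ldb3 4456568, also singled out after its values were seen. Its usage was -2.04, -2.33 and -1.998 in controls and -1.83, -1.45 and -1.75 after knockdown, a difference of 0.45 (standard error 0.16, limma p value before adjustment 0.0274), opposite in direction to the Ldb3 probe sets with lower usage.

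Within Ocln the lower values ran across nearly all probe sets but not evenly. All 12 probe sets tested had a lower mean after knockdown, by -1.22 to -0.19. They read 1 gene on the same 6 arrays, so they restate the fall of the gene value. In 10 of them every knockdown array lay below every control array, a pattern whose share over all probe set levels was not counted. The same 10 had an unadjusted p under 0.05, a rule met in this direction by 3.58% of all probe sets, and none passed after adjustment (limma, smallest adjusted p = 0.417), nor did any of the whole array (35379, or 5.92%, with an unadjusted p under 0.05). Of the 10 Ocln probe sets, 4518079, singled out after its values were seen, had a mean only 0.02 above the filter threshold. Its mean was 6.11 in controls and 5.40 after knockdown. The latter lay below the threshold, so it was kept through its control values. Probe set 4478798, singled out after its values were seen, had log2 values of 8.59, 8.85 and 8.71 in controls and 7.65, 7.64 and 7.66 after knockdown. Probe set 4861784 had 8.30, 8.53 and 7.94 in controls and 7.18, 6.99 and 6.92 after knockdown. By contrast 4991338 had 6.82, 7.25 and 7.52 in controls and 7.01, 7.08 and 6.94 after knockdown, and 4648969 had 7.66, 7.95 and 7.81 against 7.18, 7.53 and 7.67. These last probe sets were the only ones of the 12 whose groups overlapped.

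**Figure D4:**
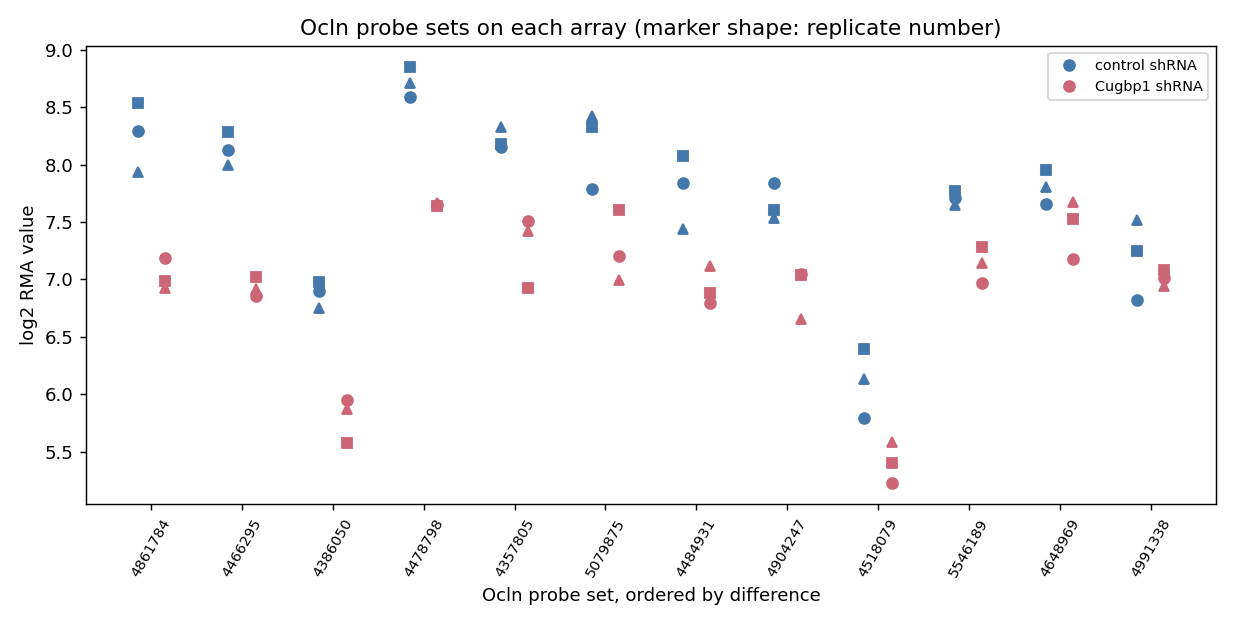
Log2 RMA value (y axis) of each of the 12 Ocln probe sets that passed the filter (x axis, ordered by difference) on each array. Blue markers are control and red markers Cugbp1 shRNA arrays, with the marker shape giving the replicate number. Red lies below blue for 10 probe sets, and the groups overlap for 4648969 and 4991338.

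Set against the gene value, the latter probe sets were relatively high. The usage of 4991338 was -1.01, -0.81 and -0.28 in controls and -0.03, 0.07 and -0.06 after knockdown, a difference of 0.69 (standard error 0.19, limma p value before adjustment 0.00995). That of 4648969 differed by 0.54 (standard error 0.15) and that of 5546189 by 0.30 (standard error 0.12), with limma p values before adjustment of 0.0116 and 0.0433. Without Cugbp1 shRNA replicate 3 these differences were 0.32 and 0.19. In the other direction 4466295 was at -0.33 (standard error 0.10) and 4861784 at -0.34 (standard error 0.13), with limma p values before adjustment of 0.0141 and 0.0383, and every limma adjusted p for usage was 1. Apart from 4991338 and 4466295 these were singled out after their values were seen. DiffSplice with the block called 4991338 alone (adjusted p = 0.0204), and without the block it gave 0.259. Since the gene as a whole fell, a probe set with a flat level gains usage by construction, and 10 of the 12 had means less than 2 log2 units above the threshold, 1.37 for 4991338. The part that dim signal plays in the uneven fall was not tested.

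**Figure D5:**
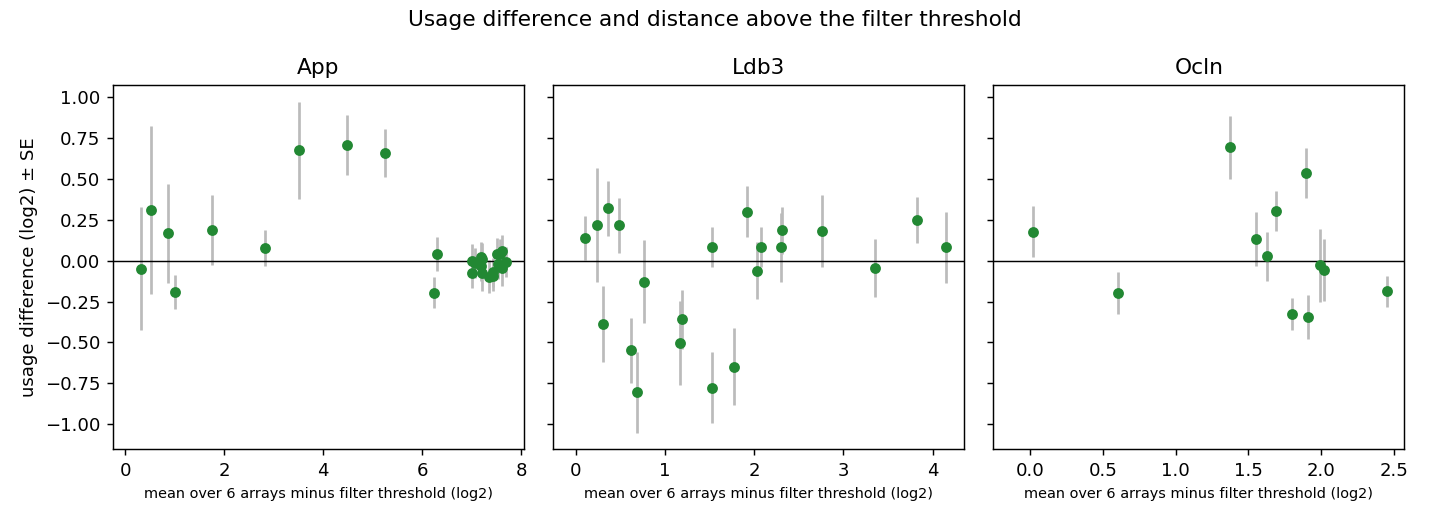
Usage difference (y axis, log2, with standard error) against the mean of the probe set over the 6 arrays minus the filter threshold (x axis, log2), for App, Ldb3 and Ocln. The 3 App probe sets near 0.7 lie 3.52 to 5.24 above the threshold, whereas the Ldb3 and Ocln probe sets with large differences lie less than 2 above it.

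Ocln is also a gene of epithelium and brain endothelium, so markers of such cells were set beside it. Of 8 epithelial and tight junction markers 7 were tested and 0 passed (limma, 1 with an unadjusted p under 0.05, beside 18.8% of all genes). With the replicate block limma called 1 of the 7 lower, beside 23.2% of all genes called in either direction. It was the tight junction gene Tjp3 (-0.29, limma adjusted p = 0.0182, against 0.188 without the block). The mean gene value of the 7 markers was 7.08 to 7.46 on control arrays and 7.08 to 7.44 on knockdown arrays. Of 8 endothelial and mural cell markers 7 were tested, and limma called the mural cell receptor Pdgfrb alone, beside 3.94% of all genes. It fell by 0.80 (standard error 0.16, limma adjusted p = 0.0415), a call lost without any 1 of the 6 arrays. The mean of the 7 markers was 6.61 to 7.03 on control and 6.57 to 6.85 on knockdown arrays, and the endothelial marker Cldn5 could not be tested. Only 51.1% of endothelial and mural probe sets lay above the threshold, and 65.3% of epithelial ones, beside 78.7% of all with 1 symbol. Both lists were thus weakly measured. Fewer cells that express Ocln and less Ocln mRNA per cell cannot be told apart in these cultures, and the part of endothelial or mural cells in its fall was not tested. In the same way the muscle markers had a mean of 7.11 to 7.49 on control and 7.12 to 7.37 on knockdown arrays beside the differences in Ldb3 and Tnnt2.

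Other genes reported to be bound or regulated by CELF1 were compared at the gene level. Of 30 such genes 29 were tested, and 15 had a higher and 14 a lower mean, with a median log2 difference of 0.019 beside -0.015 for all genes. Mtmr3, a phosphatase of the same family as Mtmr1, fell by 0.42 (standard error 0.085, limma adjusted p = 0.0423) and was the 1 call of 29, beside 3.94% of all genes. Its gene value was 10.31, 10.19 and 10.18 in controls and 9.84, 9.79 and 9.77 after knockdown, with no overlap. That call was lost in 10 of 16 alternative settings, in which adjusted p values reached 0.215, while the difference stayed between -0.45 and -0.36. With the replicate block 4 of the 29 rose and 3 fell, beside 23.2% of all genes called.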

How the data were processed

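Values were deposited as log2 RMA values, 1 for each of 1195555 exon probe sets on each of 6 arrays, made by the authors. The submitters' processing notes name RMA, Affymetrix Expression Console and the mm9 build. RMA brings arrays to a common distribution, so differences in total signal are removed. The software versions are unknown here, and the number of arrays limits precision. The platform annotation gave 1 symbol to 316997 probe sets, several to 6571 and did not list 871987. Older symbols were updated through the RefSeq list of genes (4213 of 22264), which left 22071 genes.

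Probe sets with a mean of at least 5.73 were kept (597778), and genes with at least 3 of them (16524) received a value by Tukey median polish. Gene values, usage (244606 probe sets) and probe set values were fitted over all features by lmFit and eBayes of limma 3.58.1 under R 4.3.3 (two-sided tests, Benjamini-Hochberg adjustment, call at an adjusted p under 0.05), as Cugbp1 shRNA minus control, with no further term. The scripts were tested on simulated data without a replicate effect and without the block. There diffSplice called more unchanged probe sets than its threshold allows, so it serves as an alternative only. Tables were read with the data.table package (1.17.8) and plots drawn with matplotlib 3.10.9.

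Replicates 2 and 3 are numbered in the titles and replicate 1 was taken by exclusion. Deviations from group means correlated at 0.763, 0.504 and 0.715 between same-numbered arrays (across genes, which are not independent replicates), so the numbers were taken as pairs and the block is given beside results whose call it changes.

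Named probe sets are, for each gene, the one of smallest p in each direction, and up to 3 called ones. From the list of other reported targets, called genes are named. Others are said to be singled out. The members, lists and tests were chosen with earlier results of these data known. Alternatives were the block, no filter and a 75th percentile filter, quantile normalization, median centring, array weights, robust variances with a trend, a threshold of 0.10, means for median polish, diffSplice, a gene value from the other probe sets, genes with at least 5 kept probe sets, and leaving out each array. Replicates 2 and 3 alone and diffSplice with the block were added after seeing the data.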

Additional observations from a re-analysis of the deposited data

How the results depend on the processing

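Of the member probe sets named, every usage difference kept its direction in each of the settings run, and none passed except under diffSplice with the replicate block, which gave 9 member calls and 5806 over the array. DiffSplice without the block gave 201 over the array. The count of genes called was 651 and became 3827 with the replicate block, 1348 at an adjusted p under 0.10, 1039 with the 75th percentile filter, 1089 with trend and robust variances and 4226 with array weights. With array weights 9 member probe set values were also called, all lower, 7 of Ocln and 2 of Ldb3, beside 0.968% of all kept probe sets. Without single arrays the gene count was 0 to 271, the member gene count 0 to 1, and Celf1 lay between -1.43 and -1.32 and passed only without control replicate 1. Gene values near 0 changed sign: without control replicate 1 App became -0.022, Mtmr1 0.034 and Tnnt2 -0.095, without control replicate 2 Pkm became -0.027, without Cugbp1 shRNA replicate 1 Bin1 became -0.0094, without Cugbp1 shRNA replicate 3 Mtmr1 became 0.030 and Tnnt2 -0.047, and with replicates 2 and 3 alone Mtmr1 became 0.032. The highest or lowest values without 1 array were 0.038 for App, -0.11 for Mtmr1, 0.093 for Pkm and 0.20 for Tnnt2. None of these was called in either case. The cause of these changes was not tested. Apart from the calls stated, the block changed no call among the 9 genes. Signal near the filter threshold limits Tnnt2, Ldb3 and Ocln most.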
